A study of Homo sapiens with 2 samples.

Results

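The plasminogen activator genes described here are PLAU, PLAUR, PLAT and SERPINE2. They were chosen by symbol, by matching the Entrez ID of each row, and all 4 were found among the 16399 genes listed. Each was expressed, at 1 CPM (count per 1000000 counts of the library) or more in at least 1 library, as were 12820 genes in all. The RNA came from A549, a long-established line of human lung adenocarcinoma cells. Libraries were prepared from its total RNA with an Illumina TruSeq kit. The PKP2 group was A549 overexpressing plakophilin 2, a desmosomal plaque protein, with an SFB tag, and the vector group was A549 carrying vector. Both groups were cultured to passage 5 in DMEM with serum and held 1 library each. There is thus no replicate check and no p-value, and what is compared is a pair of libraries rather than the conditions. Whether the PKP2 cells came from 1 clone or a pool is not stated in the labels.

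Urokinase (uPA, encoded by PLAU) and tissue plasminogen activator (tPA, encoded by PLAT) are serine proteases that cut the zymogen plasminogen into plasmin, which digests fibrin and other matrix proteins. The urokinase receptor (uPAR, encoded by PLAUR) holds uPA on the cell surface through a glycolipid anchor. Protease nexin-1, encoded by SERPINE2, is a serpin that inhibits thrombin, uPA and tPA. Carcinoma cells are known to carry uPA on uPAR at their surface, where it acts in matrix breakdown and migration.

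The DNA before a transcription start of 3 of the genes is shown as the regulatory sequence nearest to that start, to set the genes beside each other. The sequences are from RefSeq on GRCh38.p14, read 5′ to 3′ on the gene's strand. Of the RefSeq starts of each gene, the one with the most GENCODE coding transcripts beginning within 50 bases was used. There were 2 such transcripts for PLAU, 2 for PLAUR and only 1 for SERPINE2. Another RefSeq start of SERPINE2 lies further upstream, after the window 224038641 to 224038890, with 0 such transcripts, and is not shown. A stretch of 30 bases is printed for PLAU and PLAUR, whose windows lie in annotated exons, and the 250 bases before the start for SERPINE2, of which 0 are exonic. Capitals mark matches, on either strand, to TGANTCA (the AP-1 motif), GGGCGG (the Sp1 GC box), CCAAT or CACGTG (the E-box), and no motif contains another of them.
PLAU, plus strand, chr10:73911074-73911103: gagggagGGGCGGcgccgGGGCGGgccctg
PLAUR, minus strand, chr19:43670337-43670366: tcacaactccaTGAGTCAgggccgagccag
SERPINE2, minus strand, chr2:224031479-224031728: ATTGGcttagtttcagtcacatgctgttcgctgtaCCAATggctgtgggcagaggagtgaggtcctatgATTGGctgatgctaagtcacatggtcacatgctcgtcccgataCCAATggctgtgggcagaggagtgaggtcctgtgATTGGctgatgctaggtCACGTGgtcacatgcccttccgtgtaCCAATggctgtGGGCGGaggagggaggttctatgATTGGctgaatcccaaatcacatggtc
In its 250 bases PLAU had 3 matches to GGGCGG, of which 2 are in the stretch shown, and PLAUR had 1 match to TGANTCA. SERPINE2 had 7 matches to CCAAT, 1 to GGGCGG and 1 to CACGTG. Its matches recur because the window holds a tandem repeat: shifted by 77 bases, 73.4% of the 173 overlapping bases were identical. Of 35116 windows of this length in the table, 42.6% held GGGCGG, 32.0% CCAAT, 6.57% TGANTCA and 6.34% CACGTG. No motif was found in all 3 windows, and these matches are a description of letters, not of bound sites.

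The libraries were of like depth, with 16808842 counts for PKP2 and 16996976 for vector. PKP2 itself had 268 CPM in the PKP2 library and 27.3 CPM in the vector library, a ratio of 9.82. The epithelial keratin genes KRT8, KRT18, KRT7 and KRT19 were expressed in both libraries, whereas the epithelial adhesion gene EPCAM was low, at 1.37 CPM in the PKP2 library and 1.47 CPM in the vector library. CDH1, which encodes E-cadherin, had 55.03 CPM in PKP2 and 63.2 CPM in vector, a ratio of 0.871 with a counting interval of 0.797 to 0.952. KRT7 and KRT19 went the other way, with ratios of 1.10 (1.08 to 1.11) and 1.13 (1.09 to 1.17). KRT8 had a ratio of 1.01 (1.005 to 1.02) and KRT18 of 0.993 (0.983 to 1.004). Differences in log2(CPM + 1), PKP2 minus vector, were also taken with a trend on transcript length and GC content removed. They were then -0.04 for KRT7, -0.02 for KRT19, -0.06 for KRT8 and -0.13 for KRT18. CDH1 and EPCAM were both at -0.15, so the opposite directions of KRT7, KRT19 and CDH1 were not seen on that scale. Of the 6 epithelial markers, 3 had an interval above 1, against 16.3% of expressed genes, and 1 below, against 19.8%. Of 5 chosen markers of type II alveolar cells, the cell type that A549 is often used to model, 3 were analysed, without SFTPC and SFTPA1. Of these 3, 2 were expressed, ABCA3 and LAMP3. ABCA3 had 83.1 CPM in the PKP2 library and 91.7 CPM in the vector library, a ratio of 0.906 (0.842 to 0.975). LAMP3 had 17 counts in PKP2 and 10 in vector. Of the 2, 1 had an interval below 1, against 19.8% of expressed genes, and 0 above, against 16.3%. The surfactant gene SFTPB had 1 count in the PKP2 library and 0 in the vector library. Of 6 chosen fibroblast markers, 4 were analysed, without COL1A2 and DCN, and 2 of the 4 were expressed. The 4 had summed levels of 11.6 CPM in the PKP2 library and 9.12 CPM in the vector library. Of 5 chosen endothelial markers, 4 were analysed, without PECAM1. They summed to 0.952 CPM in the PKP2 library and 0.294 CPM in the vector library, with 0 of 4 expressed. Of 6 chosen leukocyte markers, 3 were analysed, without PTPRC, CD3E and MS4A1. All 3 were expressed, summing to 89.1 CPM in the PKP2 library and 85.7 CPM in the vector library. Most of it came from the lysosomal gene CD68. CD14 had 3.27 CPM in PKP2 and 3.35 CPM in vector, and ITGAM 3.33 CPM in PKP2 and 3.88 CPM in vector. The part of these levels in the results below was not tested.

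The 4 genes had similar levels in the PKP2 library and in the vector library. None differed by 1.5-fold, as 0.733% of expressed genes did on the higher and 0.788% on the lower side. PLAUR was the 1 gene of the 4 whose counting interval lay above 1, against 16.3% of expressed genes. PLAT was the 1 gene past 1.2-fold on the higher side, against 8.70%, though from few counts. Summed over the 4 genes, the counts were 8533.06 in the PKP2 library and 8301.8 in the vector library, or 507.7 CPM in PKP2 and 488.4 CPM in vector. This ratio was 1.04, with a 95% counting interval of 1.01 to 1.07. Intervals here and below are exact and cover counting error only, not the spread between cultures. In bulk RNA, fewer cells with a transcript and less of it per cell cannot be told apart.

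PLAU (Entrez ID 5328; chromosome 10, 73909177 to 73917497, plus strand, GRCh38) had 258 CPM in the PKP2 library, against 249 CPM in the vector library. These levels come from 4336.06 estimated counts in PKP2 and 4229.8 in vector. The ratio was 1.04 (0.993 to 1.08), so the urokinase transcript did not differ detectably at this depth. The estimates are fractional, and PLAU overlaps C10orf55, a gene on the opposite strand, by 7529 bases. C10orf55 was given 34.94 counts in the PKP2 library and 41.2 in the vector library. Each pair of fractional values adds up to a whole number, 4371 in the PKP2 library and 4271 in the vector library, and C10orf55 took 0.799% of this sum in PKP2 and 0.965% in vector. The summed counts had a ratio of 1.03 (0.992 to 1.08), close to that of PLAU alone. As the strand setting is not stated, reads of the overlapping genes cannot be told apart.

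PLAUR (Entrez ID 5329; chromosome 19, 43646095 to 43670547, minus strand) had 81.6 CPM in the PKP2 library, from 1372 counts, and 72.4 CPM in the vector library, from 1230 counts. The receptor transcript was thus 1.13-fold higher (1.04 to 1.22) in the PKP2 library, and the exact 95% intervals of the levels, 77.4 to 86.1 CPM for PKP2 and 68.4 to 76.5 CPM for vector, did not overlap. A difference of this size was common: 39.1% of expressed genes differed by at least as much in either direction, and 35.7% of the 7482 genes with a mean of 10 to 100 CPM did.

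PLAT (Entrez ID 5327; chromosome 8, 42175233 to 42207724, minus strand) had the fewest counts of the 4, 152 in the PKP2 library and 125 in the vector library. Its levels were 9.04 CPM in the PKP2 library and 7.35 CPM in the vector library. The ratio of 1.23 was the largest of the 4, but its interval of 0.964 to 1.57 includes 1, and the intervals of the levels overlapped (7.66 to 10.6 CPM for PKP2, 6.12 to 8.76 CPM for vector). Of all expressed genes 19.3% differed by at least as much in either direction, and 30.6% of the 2968 genes with a mean of 1 to 10 CPM did.

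SERPINE2 (Entrez ID 5270; chromosome 2, 223975112 to 224039319, minus strand), the inhibitor, had 159.0 CPM in the PKP2 library and 159.9 CPM in the vector library, from 2673 counts in PKP2 and 2717 in vector. The ratio was 0.995 (0.943 to 1.05), and 97.2% of expressed genes differed by at least as much. The protease nexin-1 transcript therefore gave the smallest difference of the 4.

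**Figure D1:**
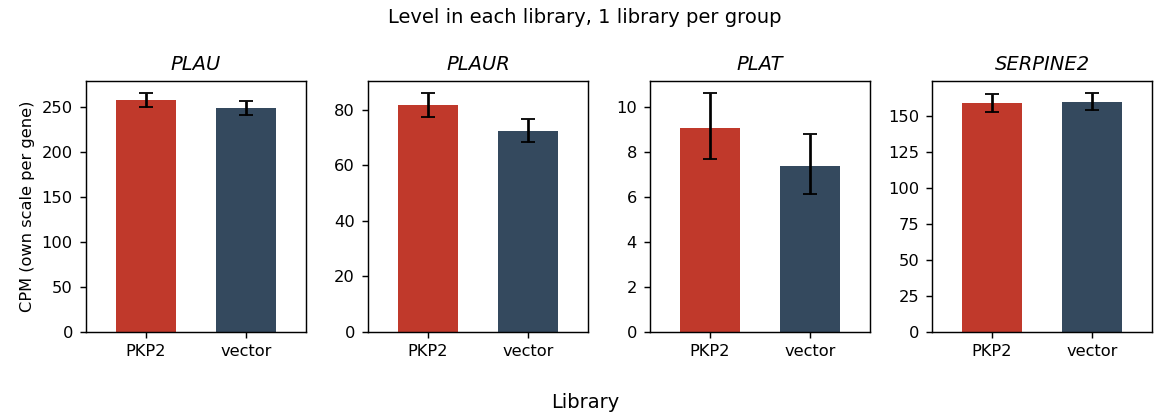
Bars show the level of each gene in CPM in the PKP2 library (left) and the vector library (right), with an axis of its own for each gene and exact 95% Poisson intervals for counting error. The intervals are apart for PLAUR (81.6 CPM in PKP2, 72.4 CPM in vector) and overlap for PLAU, PLAT and SERPINE2.

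Set against the whole transcriptome, the 4 genes were unremarkable in the size of their differences. A gene was counted as past 1.5-fold or 1.2-fold where its difference in log2(CPM + 1), PKP2 minus vector, was 0.58 or 0.26 or more in size. The differences were 0.05 for PLAU, 0.17 for PLAUR, 0.27 for PLAT and -0.01 for SERPINE2. On the lower side, 0 of 4 were past 1.2-fold, against 11.0% of expressed genes. PLAT lay just past the line on the higher side, and with 5 added to each CPM value in place of 1 its difference was 0.18, short of it. An interval wholly below 1 was found for 0 of 4 genes, against 19.8% of expressed genes. The median difference of the 4 was 0.11, beside 0.00 over all expressed genes.

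**Figure D2:**
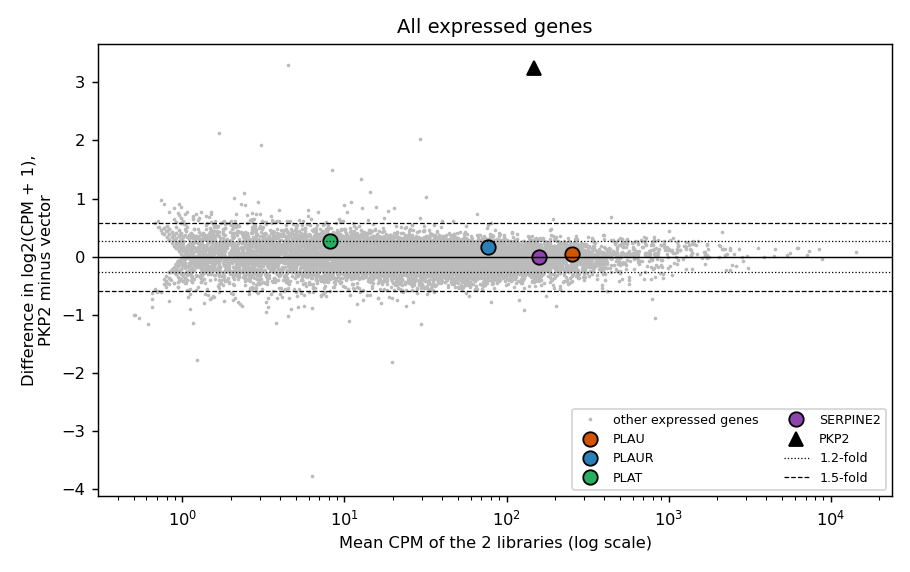
Each point is an expressed gene, placed by its mean CPM over both libraries (log scale) and by its difference in log2(CPM + 1), PKP2 minus vector, with dotted lines at 1.2-fold and dashed lines at 1.5-fold. The 4 named genes lie inside the band of the other genes, PLAT at 0.27 next to the 1.2-fold line, while PKP2 stands at 3.25.

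The differences of 3 of the 4 genes lay within 0.1 of the median of genes of like transcript length, which itself varied. Genes averaging at least 5 CPM were split into 5 equal groups by the length of the longest GENCODE transcript. The median difference was 0.13 in the shortest group (177 to 2233 nucleotides) and -0.16 in the longest (6109 to 34526). PLAUR, with 1610 nucleotides, was in the shortest group, and its difference of 0.17 stood beside that median of 0.13. PLAU, with 2658 nucleotides, had 0.05, as did the median of the second group. SERPINE2, with 5989 nucleotides, had -0.01 beside a median of -0.07 in the fourth group. PLAT, with 3462 nucleotides, had 0.27 where the third group had a median of -0.02. With a trend on length and GC content removed, the differences were -0.03 for PLAU, 0.02 for PLAUR, 0.27 for PLAT and 0.12 for SERPINE2. The excess of PLAUR in the PKP2 library thus went to near 0, that of PLAT did not move, and PLAU and SERPINE2 changed sign. PLAT and SERPINE2 were then at percentiles 94.0 (PLAT) and 79.3 (SERPINE2) of all expressed genes.

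**Figure D3:**
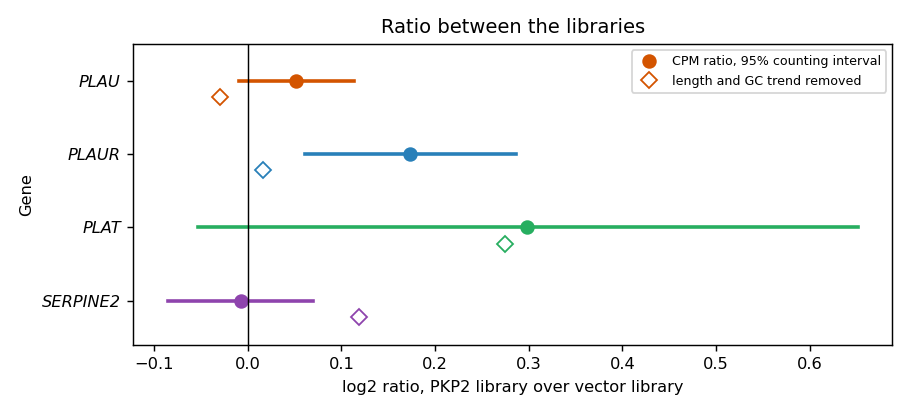
Filled circles show the log2 ratio of CPM, PKP2 library over vector library, with the 95% counting interval as a line; open diamonds show the difference in log2(CPM + 1) after removal of the length and GC trend. The line of PLAUR (ratio 1.13) lies right of 0, but its diamond is at 0.02, and the diamonds of PLAU and SERPINE2 lie outside their lines.

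**Figure D4:**
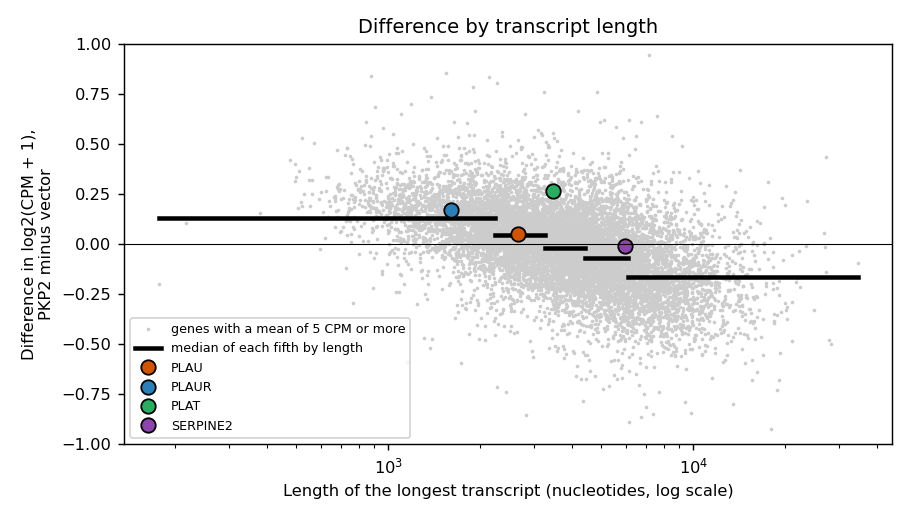
Grey points are the 10797 genes averaging at least 5 CPM, by longest transcript in nucleotides (log scale) and difference in log2(CPM + 1), PKP2 minus vector; 7 of them fall beyond the vertical axis, and black bars give the median of each of 5 equal groups by length. PLAUR, PLAU and SERPINE2 lie near the bars, which step down from 0.13 to -0.16 with length, and PLAT at 0.27 lies above its bar.

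Levels can be compared between genes only per length. In CPM per kilobase of the longest transcript, PLAU was the highest in level, at 97.1 in the PKP2 library and 93.6 in the vector library, which placed it at rank 581 (PKP2) and 566 (vector) of 12670 genes. PLAUR followed at 50.7 in the PKP2 library and 44.9 in the vector library, and SERPINE2 at 26.6 in PKP2 and 26.7 in vector. PLAT was far below, at 2.61 in the PKP2 library and 2.12 in the vector library. The urokinase transcript was thus 37.2 times as abundant per length as that of tPA in the PKP2 library and 44.1 times in the vector library. Per length, PLAU was 1.91 times the level of its receptor in the PKP2 library and 2.08 times in the vector library. These ratios rest on the length used. Per kilobase of the median transcript, PLAU was 62.2 times PLAT in PKP2 and 73.7 times in vector, and 3.07 times PLAUR in PKP2 and 3.34 times in vector. The order of PLAUR and SERPINE2 depends on it too. On that scale SERPINE2 had 117.6 and PLAUR 112.2 in the PKP2 library, and SERPINE2 had 118.2 and PLAUR 99.5 in the vector library.

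The balance among the 4 genes, which does not depend on how the libraries are scaled, was also similar in the 2 libraries. Of the 6 pairs, only the count ratio of PLAUR over SERPINE2 differed between the libraries beyond counting error. That ratio of receptor to inhibitor was 0.513 in the PKP2 library and 0.453 in the vector library, a 1.13-fold difference (1.03 to 1.25). The ratio of PLAU to PLAUR was 3.16 in the PKP2 library and 3.44 in the vector library, a ratio of ratios of 0.919 (0.841 to 1.004). For PLAU over SERPINE2 the ratio was 1.62 in the PKP2 library and 1.56 in the vector library, 1.04-fold (0.973 to 1.12). The 3 pairs with PLAT had intervals from 0.657 at the lowest to 1.59 at the highest, all including 1. After removal of the length and GC trend, SERPINE2 lay above PLAUR in its difference (0.12 against 0.02), so the shift toward the receptor is not seen on that scale.

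Genes with the most similar pair of levels were found by Euclidean distance in log2(CPM + 1) over the 2 libraries. The nearest were HNRNPD to PLAU (distance 0.012), MBD3 to PLAUR (0.010), RARS1 to SERPINE2 (0.011), and TMEM150A and ZNF461 to PLAT (0.010 each). With 2 libraries this says only that these genes have like levels.

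Docking proteins for plasminogen were abundant and differed little between the libraries. Plasminogen itself is made mainly by the liver, and PLG was not analysed here. All 6 docking genes were expressed, with a median difference of 0.03 and a summed 16370 CPM in the PKP2 library against 15875 CPM in the vector library. ANXA2, a subunit of the annexin A2 and S100A10 complex that binds tPA and plasminogen, had 3749 CPM in the PKP2 library and 3385 CPM in the vector library, 1.11-fold higher (1.10 to 1.12). Its partner S100A10 had 754.9 CPM in the PKP2 library and 753.8 CPM in the vector library, a ratio of 1.00 (0.977 to 1.03). ENO1, a glycolytic enzyme that also binds plasminogen at the cell surface, had 2588 CPM in PKP2 and 2511 CPM in vector, with a ratio of 1.03 (1.02 to 1.04). PLGRKT, a transmembrane plasminogen receptor, had 12.7 CPM in the PKP2 library and 11.3 CPM in the vector library, a ratio of 1.13 (0.923 to 1.38). The keratin genes KRT8 and KRT18, which are also on the epithelial marker list, had ratios of 1.01 and 0.993. In all 3 of the 6 intervals lay above 1, against 16.3% of expressed genes, and 0 below, against 19.8%, but none of the 6 was past 1.2-fold (8.70% higher and 11.0% lower of expressed genes). The 3 were those of ANXA2, ENO1 and KRT8, with 63021, 43493 and 91037 counts in the PKP2 library. Intervals narrow as counts rise, so the shares over all expressed genes are not a like comparison for such abundant genes. After removal of the length and GC trend ANXA2 lay at 0.17, S100A10 at -0.19 and the list median at -0.05.

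Among clearance receptors and their partners, 4 genes were lower in the PKP2 library. The list holds endocytic receptors that take up protease and serpin complexes, the receptor chaperone gene LRPAP1 and the ligand gene VTN. Of its 8 expressed genes, 4 had an interval below 1, where 19.8% of expressed genes did, and 0 above, against 16.3%, and 2 were past 1.2-fold on the lower side, against 11.0%. LRP1, the main receptor for such complexes, had 49.2 CPM in the PKP2 library and 58.9 CPM in the vector library, a ratio of 0.835 (0.761 to 0.917). The sorting receptor SORL1 had 22.6 CPM in PKP2 and 33.2 CPM in vector, with a ratio of 0.681 (0.597 to 0.777). IGF2R, which binds uPAR and plasminogen, had 136.2 CPM in the PKP2 library and 182 CPM in the vector library, a ratio of 0.747 (0.708 to 0.789). LRP8 had a ratio of 0.853 (0.798 to 0.912). VTN, which encodes the uPAR ligand vitronectin, had 6.13 CPM in PKP2 and 5.35 CPM in vector, with a ratio of 1.14 (0.855 to 1.53). The list median was -0.11, and -0.04 without the trend on length and GC, but -0.23 with fractional counts left out. With the trend removed SORL1 was at -0.38, IGF2R at -0.25, LRP1 at -0.15 and LRP8 at -0.10. On the same scale VLDLR, which takes up such complexes too, lay at 0.30, LRPAP1 at 0.13, VTN at 0.04 and MRC2 at 0.03, of which VLDLR, LRPAP1 and MRC2 were picked after their values were seen.

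Few other inhibitors of the system were expressed. Of the 9 analysed 4 were, with a median difference of 0.16, or 0.11 over those averaging at least 5 CPM. Of the 4, 2 had an interval above 1, against 16.3% of expressed genes, and 0 below, against 19.8%. None was past 1.2-fold (8.70% higher and 11.0% lower of expressed genes). SPINT2, an inhibitor of the proteases that activate hepatocyte growth factor, had 338.1 CPM in the PKP2 library and 319.2 CPM in the vector library, a ratio of 1.06 (1.02 to 1.10). SERPINB6, an intracellular serpin, had a ratio of 1.08 (1.0005 to 1.16) and SERPINB8 of 1.17 (0.987 to 1.38). SERPINF2, which encodes the plasmin inhibitor alpha-2-antiplasmin, had 3.69 CPM in PKP2 and 2.94 CPM in vector, with a ratio of 1.25 (0.850 to 1.86). SERPINI1, which encodes the tPA inhibitor neuroserpin, had 11 counts in each library. SERPINB2 and SERPINA5 were not analysed here.

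Among plasmin targets and the proteases and receptors around them, the larger differences were on the lower side. Of 10 expressed genes, 3 had an interval below 1, against 19.8% of expressed genes, and the same 3 were past 1.2-fold on that side, against 11.0%. No interval lay above 1, against 16.3%. MET, the receptor of hepatocyte growth factor, had 351.2 CPM in the PKP2 library and 463.7 CPM in the vector library, a ratio of 0.757 (0.732 to 0.784). MST1R, its relative and the receptor of macrophage-stimulating protein, had 21.8 CPM in PKP2 and 30.1 CPM in vector, with a ratio of 0.723 (0.630 to 0.828). The plasmin substrate FN1 had 503.4 CPM in the PKP2 library and 640.9 CPM in the vector library. With the trend removed MET lay at -0.26, MST1R at -0.48 and FN1 at -0.17. The fibrinogen chain gene FGB had a ratio of 1.13 (0.928 to 1.38) and the latent TGF-beta binding protein gene LTBP1 of 1.07 (0.947 to 1.22). The list median was 0.00, -0.22 over the genes averaging at least 5 CPM and -0.085 with fractional counts left out.

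Of 11 analysed relatives of PLAUR in the LY6/uPAR family 5 were expressed, with 1 counting interval above 1 and 1 below, close to the 16.3% and 19.8% of expressed genes. The complement regulator CD59 had 239 CPM in the PKP2 library and 242 CPM in the vector library, a ratio of 0.990 (0.948 to 1.03). LY6E had 169.0 CPM in PKP2 and 170.1 CPM in vector, with a ratio of 0.993 (0.943 to 1.05). LYPD1 had 23.9 CPM in the PKP2 library and 13.4 CPM in the vector library, a ratio of 1.78 (1.51 to 2.10) from fractional counts, and a difference of 0.65 without the trend on length and GC. LY6K, picked after its value was seen, had 30 counts in the PKP2 library and 57 in the vector library, a ratio of 0.532 (0.330 to 0.842). The median of the 5 genes was -0.01, and 0.12 without that trend.

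Matrix metalloproteinases, several of which plasmin activates, and their TIMP inhibitors went both ways. Of 14 genes 8 were expressed, with 2 intervals above 1, against 16.3% of expressed genes, and 1 below, against 19.8%. Their median was 0.11, but 0.016 without the trend on length and GC and 0.031 over genes averaging at least 5 CPM. TIMP1 had 172.7 CPM in the PKP2 library and 140.6 CPM in the vector library, a ratio of 1.23 (1.16 to 1.30), and its difference of 0.29 became 0.08 without the trend on length and GC. TIMP4 had 11.2 CPM in PKP2 and 14.8 CPM in vector, with a ratio of 0.757 (0.624 to 0.919). Its difference of -0.37 became -0.51 without that trend. TIMP2 had a ratio of 0.967 (0.931 to 1.01). MMP15, a membrane-type enzyme, had a ratio of 1.15 (1.02 to 1.29), and the gelatinase gene MMP2 of 1.27 (0.934 to 1.73). The collagenase and stromelysin genes MMP1 and MMP3 had 3 counts or fewer in each library.

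On the clotting side of the same balance, receptors, cofactors and inhibitors of coagulation were analysed together. Of 10 expressed genes, 8 had a negative difference, as had 6448 of the 12820 expressed genes. In all 4 had an interval below 1, against 19.8% of expressed genes, and 2 an interval above 1, against 16.3%. F3, which encodes tissue factor, had 6.37 CPM in the PKP2 library and 8.71 CPM in the vector library, a ratio of 0.731 (0.565 to 0.944). The protease-activated receptor genes F2R and F2RL1 had ratios of 0.866 (0.782 to 0.959) and 0.882 (0.822 to 0.946). TFPI2, which encodes an inhibitor of plasmin and tissue factor complexes, had 439.2 CPM in PKP2 and 488 CPM in vector, with a ratio of 0.900 (0.872 to 0.929). TFPI had a ratio of 0.905 (0.793 to 1.03). The intervals above 1 were those of the protein C receptor gene PROCR, with a ratio of 1.09 (1.03 to 1.16), and ANXA5, with 1.06 (1.02 to 1.10). Without the trend on length and GC the difference was -0.03 for PROCR and -0.0056 for ANXA5, and both genes were chosen with these values known. The list median was -0.13, and -0.10 with the trend removed.

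AP-1, ETS and NF-kappaB factors and SP1, families with known regulators of PLAU and PLAUR, were all expressed. Over 15 genes the median was -0.04, with 3 intervals above 1, against 16.3% of expressed genes, and 4 below, against 19.8%. Past 1.2-fold on the lower side, against 11.0% of expressed genes, was 1 gene, SP1, with 100.5 CPM in the PKP2 library and 122.8 CPM in the vector library, a ratio of 0.818 (0.767 to 0.873). JUND had a ratio of 1.19 (1.09 to 1.30), ETS2 of 1.14 (1.07 to 1.21), JUNB of 1.12 (1.05 to 1.19) and ETV5 of 0.869 (0.787 to 0.958). The other intervals below 1 were those of FOS, with a ratio of 0.914 (0.877 to 0.952), and ETV4, with 0.914 (0.837 to 0.998). FOS and ETV4 were picked after their values were seen. After removal of the length and GC trend, JUND lay at 0.05, JUNB at -0.02, SP1 at -0.14, ETV5 at -0.18 and ETS2 at 0.19. FOS lay at -0.23 and ETV4 at -0.25 on that scale.

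**Figure D5:**
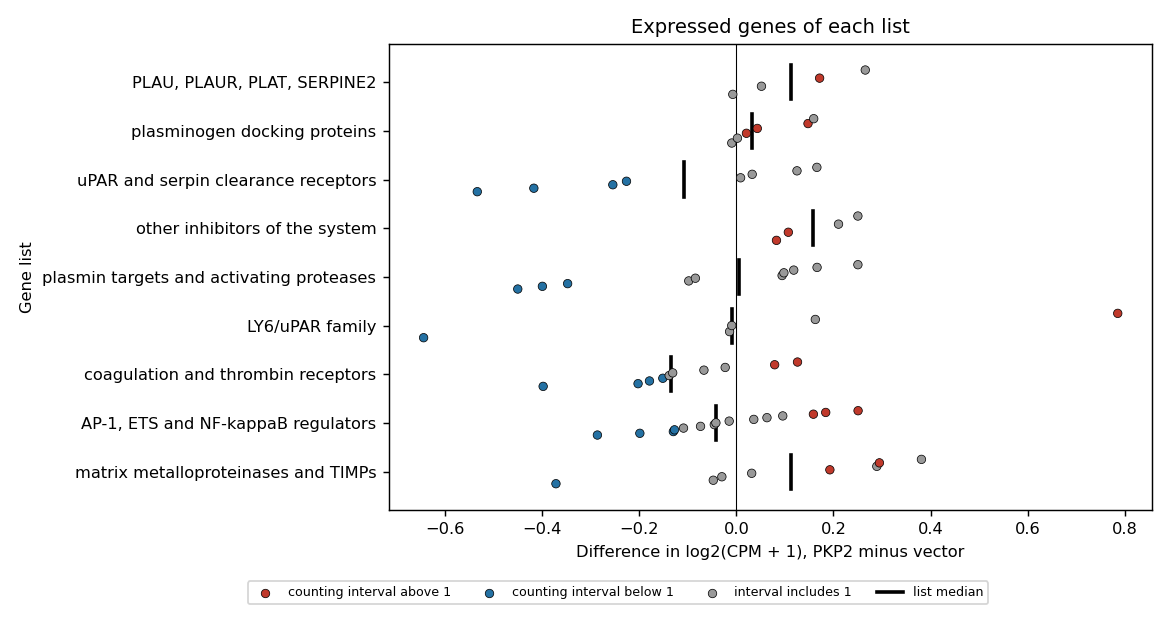
Points are the expressed genes of each list by difference in log2(CPM + 1), PKP2 minus vector; red and blue mark counting intervals above and below 1, grey marks intervals that include 1, and black bars are list medians. The clearance genes divide into 4 genes on the lower side and 4 near or right of 0, and the medians of the lists run between -0.13 and 0.16.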

How the data were processed

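Each library has 1 file of estimated counts per gene as deposited, named counts per the file headers. HISAT2 2.0.4, Bowtie2, RSEM 1.2.12 and GRCh38.p12 appear per the submitters' processing notes. Their roles, the annotation and the strand setting are not stated. Totals were 16808842 (PKP2) and 16996976 (vector). From the counts, CPM, the difference in log2(CPM + 1) and the plain CPM ratio were computed with Python 3.11.15, scipy 1.17.1 and statsmodels 0.14.6. Ratios have exact 95% Clopper-Pearson intervals from counts rounded to whole numbers, and ratios of ratios exact conditional intervals. An additive lowess trend (span 0.3) on log2 transcript length and GC content (GENCODE 29, 98.8% of expressed genes) was removed as an alternative. The calculation was tested on simulated data. Symbols matched 16183 of 16399 Entrez IDs (RefSeq table, GRCh38.p14).

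The members and the 8 gene lists were chosen with earlier results of these data known. The text names the 4 members, up to 5 genes per list with the largest differences at a mean of 5 CPM or more (1 CPM where fewer than 3 qualify), genes that bind or inhibit the members, and the nearest genes by level. Some genes of the system are not reported here. Groups followed the sample titles.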

Additional observations from a re-analysis of the deposited data

How the results depend on the processing

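No paired analysis was possible because each group has 1 library, and no library could be left out. The differences of PLAU, PLAUR, PLAT and SERPINE2 stayed inside their counting intervals under pseudocounts of 0.1 and 5 and under median and trimmed mean scaling, and that of PLAU also when summed with C10orf55 (0.05), an alternative chosen after the data were seen. Removing the length and GC trend moved PLAU to -0.030, PLAUR to 0.016 and SERPINE2 to 0.12, outside these intervals; PLAT stayed at 0.27. It also moved the medians of the docking proteins to -0.050 and of the LY6/uPAR family to 0.12; the cause was not tested. Some other list medians moved by over 1.5 times. Plasmin targets went from 0.00 to -0.22 at a mean of 5 CPM or more, and to -0.085 without fractional counts. Metalloproteinases went from 0.11 to 0.016 without the trend, 0.031 at a mean of 5 CPM or more and 0.19 without fractional counts. With no filter on level, plasmin targets were at -0.037 and metalloproteinases at 0.056. Clearance genes went from -0.11 to -0.036 without the trend, but to -0.23 without fractional counts. The number of genes past 1.5-fold was 249 higher and 206 lower with a pseudocount of 0.1, 19 and 20 with a pseudocount of 5, and 31 and 50 at a mean of 5 CPM or more, against 94 and 101. Past 1.2-fold, 459 were higher and 861 lower with a pseudocount of 5, 704 were higher at a mean of 5 CPM or more and 831 lower with the trend removed, against 1115 and 1412. The filter at a mean of 5 CPM leaves fewer genes, 10797 with a known transcript length, against 12820 expressed genes. Its counts are thus not out of the same number. Depth limits PLAT most: its interval spans 0.964 to 1.57, while that of SERPINE2 spans 0.943 to 1.05.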
